A study of Mus musculus with 33 samples.

Results

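The genes described here are 8 neural and neuronal genes, followed through a retinoid time course in differentiating mouse cells. They are *Pax6*, *Neurog1*, *Neurog2*, *Elavl3*, *Elavl4*, *Tubb3*, *Stmn2* and *Chrna3*, found by their gene symbols, and make up 8 of the 17120 genes in the deposited table. They were chosen by name, 7 of them as familiar genes of the neural lineage and *Chrna3* on its measured fold change, since it rose strongly with the agonist CD1530. The levels of these genes in CD1530 and AGN libraries were therefore known when they were chosen. For these 8, every comparison of CD1530 with AGN is a description: no p-value is given, and calls are only counted beside the share of all genes called.

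The cultures came from mouse embryonic stem cells carrying ScxGFP, a reporter of the tendon transcription factor *Scx*. PM is paraxial mesoderm on day 6 (D6), formed from embryoid bodies with the BMP inhibitor LDN-193189 and then also the Wnt agonist CHIR; the labels give its source as embryoid bodies. From D6 the cells were grown, by the labels, as monolayers with TGFβ1, the hedgehog agonist SAG and FGF2 in serum-free medium, and 1 of 2 retinoid ligands. These were CD1530, which activates the retinoic acid receptor RARγ, and AGN 193109 (AGN), which binds retinoic acid receptors and lowers their activity. Cells were taken with each ligand on D6.25 and D6.75, then D7.5 and D8.5, and last on D10, which the labels count as days 0.25, 0.75, 1.5, 2.5 and 4, and each of the 11 groups held 3 biological replicates. CD1530 was used at a higher concentration than AGN 193109, there was no group without a retinoid ligand after D6, and the labelled culture format changed together with the factors between PM and every later group. The methods also describe AGN 193109 or all-trans retinoic acid during PM formation without saying which of these the sequenced PM cultures received, and the stem cell line behind each replicate is not given in the sources used here.

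Retinoic acid acts through nuclear receptors that bind DNA in pairs with RXR, and it is widely used to drive embryonic stem cells toward neural fates. In the neural tube, PAX6 marks dividing progenitors of several domains, and the proneural factors NEUROG1 and NEUROG2 commit progenitors to become neurons. Young neurons then make the Hu RNA-binding proteins ELAVL3 and ELAVL4, the tubulin isotype TUBB3, the microtubule regulator stathmin-2 (STMN2) and, in autonomic ganglia and some brain nuclei, the nicotinic acetylcholine receptor subunit CHRNA3. The question put to these genes is how far, when and in which order they separated between the 2 ligands.

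Promoter windows, the 250 bases upstream of a RefSeq transcript start on GRCm38.p6, were at hand for 7 of the 8 genes and 11 of their starts; *Stmn2* had none. They were searched on both strands for AGGTCA, the half-site that retinoic acid receptors bind, for its direct repeats 1, 2 or 5 bases apart, and for CANNTG, the core bound by proneural factors with their partners. The half-site was found in 3 of the 11 windows, belonging to *Neurog1* and to 2 overlapping starts of *Elavl4*, and in 14.0% of all 32851 windows of that length. CANNTG was found in 6 of the 11 windows, from 4 genes, against 66.2% of all windows. No direct repeat was found in a window of these genes. Repeats 1, 2 and 5 bases apart were in only 0.0335%, 0.00913% and 0.00913% of all windows, so nothing is read from their absence. Windows of 3 starts are shown, 5′ to 3′ on the gene's strand: those of the half-site genes and that of the gene chosen for its rise. Capitals mark AGGTCA or its complement TGACCT and CANNTG, of which the pair at the start of the *Chrna3* window overlap each other.
Neurog1, chr13:56252181-56252430, minus strand: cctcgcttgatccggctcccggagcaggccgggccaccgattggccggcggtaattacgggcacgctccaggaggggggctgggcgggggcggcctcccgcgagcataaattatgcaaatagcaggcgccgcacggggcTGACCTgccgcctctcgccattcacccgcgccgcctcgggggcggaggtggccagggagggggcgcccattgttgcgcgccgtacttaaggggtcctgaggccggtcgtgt
Elavl4, an internal start, chr4:110287528-110287777, minus strand: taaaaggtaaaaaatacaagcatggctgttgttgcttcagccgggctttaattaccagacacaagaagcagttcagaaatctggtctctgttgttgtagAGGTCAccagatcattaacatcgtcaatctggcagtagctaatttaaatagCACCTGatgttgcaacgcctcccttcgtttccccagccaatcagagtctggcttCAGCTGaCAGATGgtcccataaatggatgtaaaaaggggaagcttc
Chrna3, chr9:55026563-55026812, minus strand: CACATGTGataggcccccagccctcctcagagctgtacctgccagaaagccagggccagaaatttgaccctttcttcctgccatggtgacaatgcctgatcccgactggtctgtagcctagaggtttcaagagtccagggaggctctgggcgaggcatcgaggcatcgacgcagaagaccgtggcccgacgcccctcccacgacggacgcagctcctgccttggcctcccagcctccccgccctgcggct
A match to these letters describes the window and does not show that a factor binds there.

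Libraries held between 17116084 and 22775275 counts, except AGN at D8.5 replicate 1 with 38120841. CD1530 at D6.75 replicate 1 stood apart from its group: the chi-square per gene against its 2 partners was 20.3 and 21.5, where every other pair of replicates was at 4.76 or less. Levels are counts per 1000000 counts of the TMM-scaled library (CPM), given as mean ± SD of 3 libraries, and differences are log2 fold changes ± SE from 1 edgeR fit of all 33 libraries. Gene positions are on GRCm38. A gene was called when the adjusted p of edgeR's quasi-likelihood test was under 0.05. As checks of the labels, *Tbx6*, a paraxial mesoderm factor, was at 9.56 ± 0.77 CPM in PM and 0.285 ± 0.165 CPM in CD1530 at D10, and *Scx* was at 6.41 ± 0.85 CPM in PM, 858 ± 17 CPM in CD1530 at D10 and 1223 ± 28 CPM in AGN at D10. In bulk RNA, fewer cells expressing a gene and less of its RNA per cell cannot be told apart.

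The separation grew with time and had 1 gene moving against the rest. At D6.25, 0 of the 8 genes were called between CD1530 and AGN, with 1.23% of all genes higher in CD1530 and 0.695% lower. At D6.75, 1 was called higher in CD1530 (*Neurog1*) and 1 lower (*Stmn2*), with 7.94% of all genes higher and 10.0% lower. Without CD1530 replicate 1, the library that stood apart, the counts at D6.75 were also 1 and 1, and the differences were 1.31 for *Neurog1* and -0.50 for *Stmn2*. D7.5 had 3 higher (*Pax6*, *Neurog1*, *Tubb3*) and 1 lower (*Stmn2*), against 15.2% and 11.8% of all genes. By D8.5, 6 were higher and 0 lower, against 20.4% and 19.6%. At D10, 7 were higher and 1, *Stmn2*, was lower, against 22.7% and 24.0%, and these 8 genes were also those whose CD1530 and AGN libraries did not overlap, which held for 27.4% of all genes in the higher and 29.6% in the lower direction. The median log2 fold change of the 8 genes at D10 was 4.32, also with *Neurog2* set to the bound given below, and that of all genes was -0.02. Since the rule used this contrast, nothing is read from these counts.

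**Figure D1:**
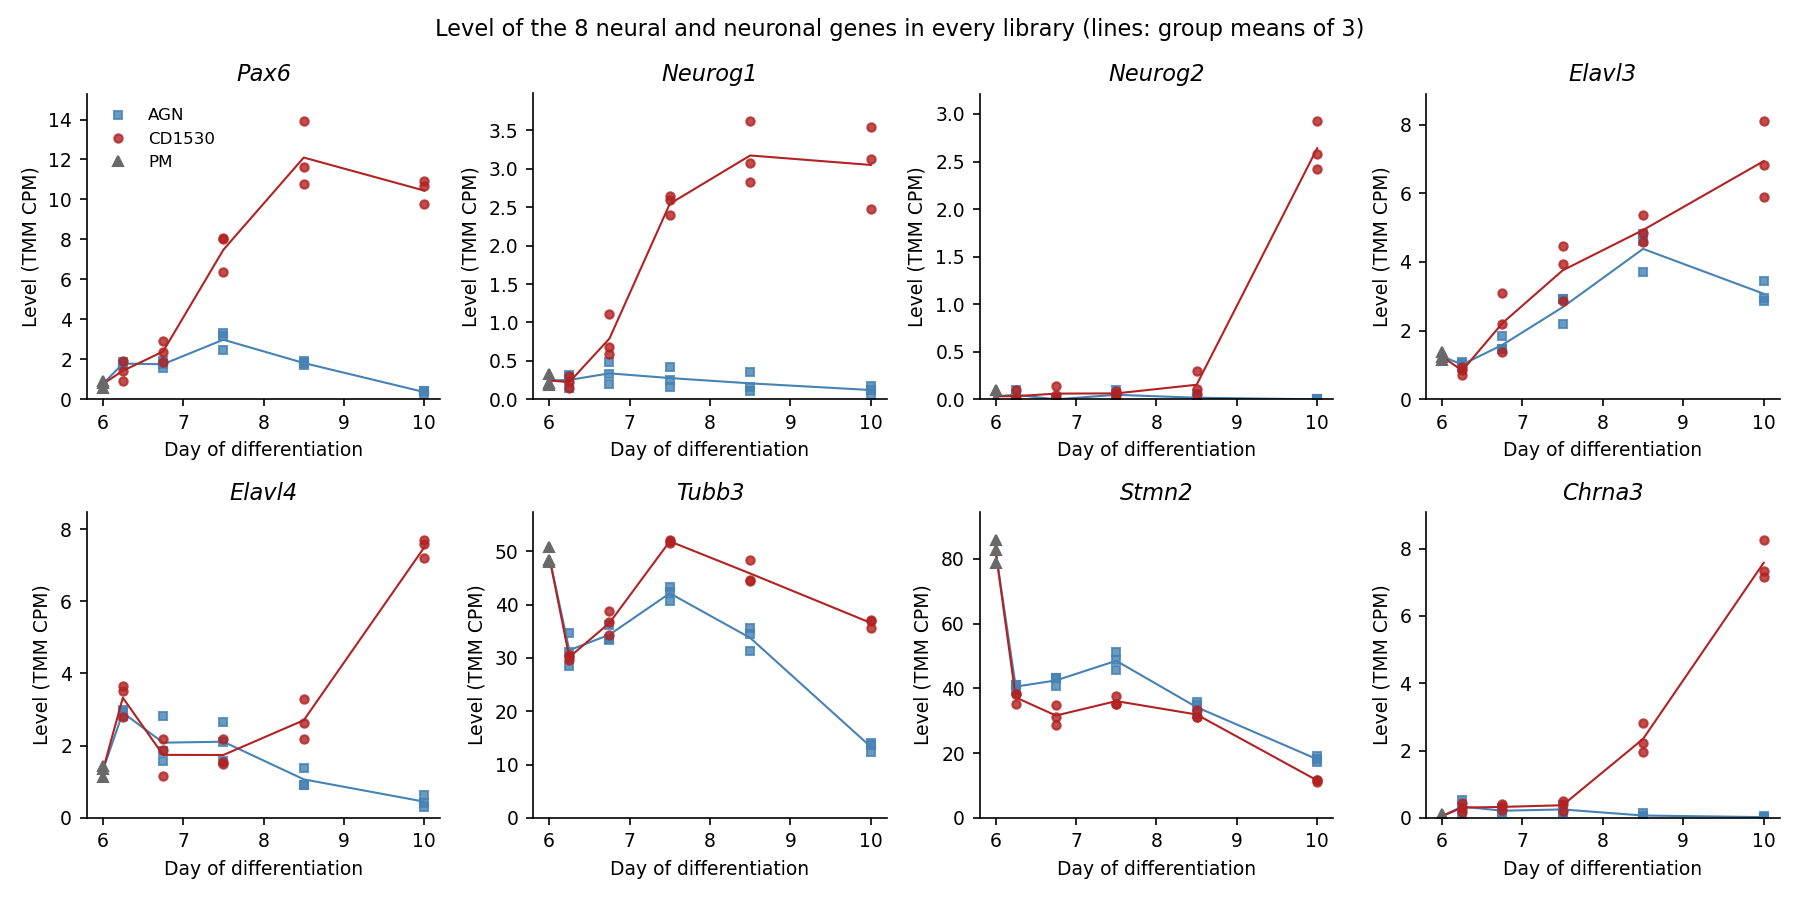
Level of each gene in every library, in TMM CPM on linear axes from 0, against day of differentiation. Points are single libraries (triangles PM, circles CD1530, squares AGN) and lines join the group means of 3. CD1530 libraries of *Neurog1* stand above AGN from D6.75, of *Pax6* from D7.5 and of *Chrna3* from D8.5, while *Stmn2* was highest in PM and lower in CD1530 than in AGN at D10.

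*Pax6* (ENSMUSG00000027168, chr2:105668900-105697364, plus strand) encodes a paired-box transcription factor of forebrain, hindbrain and spinal cord progenitors, and of eye and pancreas. Its 3 PM libraries were at 0.574, 0.803 and 0.916 CPM. In CD1530 the libraries read 8.06, 8.02 and 6.37 CPM at D7.5, 10.8, 11.6 and 13.9 CPM at D8.5, and 9.75, 10.9 and 10.7 CPM at D10. In AGN they read 2.48, 3.16 and 3.31 CPM at D7.5, 1.92, 1.73 and 1.80 CPM at D8.5, and 0.250, 0.422 and 0.416 CPM at D10. The conditions overlapped at D6.25 and D6.75 and were apart at every later time, and AGN at D10 lay below every PM library. CD1530 minus AGN was -0.31 ± 0.22, 0.44 ± 0.20, 1.31 ± 0.16, 2.71 ± 0.17 and 4.82 ± 0.36 from the first to the last time. CD1530 at D8.5, at 12.1 ± 1.6 CPM, and at D10, at 10.4 ± 0.6 CPM, overlapped and ranked highest of the 11 groups. The gap widened from D8.5 to D10 while the CD1530 libraries stayed within overlapping ranges and the AGN mean went from 1.82 to 0.362 CPM. *Pax6* overlaps the antisense gene *Pax6os1*, and the strand setting of the counting is not given in the sources used here.

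*Neurog1* (ENSMUSG00000048904, chr13:56250478-56252163, minus strand) encodes a proneural basic helix-loop-helix factor that commits progenitors of cranial and dorsal root sensory neurons and of parts of the spinal cord. It was the first of the 8 to separate upward. At D6.75 its CD1530 libraries were at 0.675, 0.591 and 1.11 CPM and its AGN libraries at 0.485, 0.194 and 0.335 CPM. At D7.5 they were at 2.40, 2.60 and 2.64 CPM against 0.165, 0.418 and 0.247 CPM, and at D10 at 3.13, 2.48 and 3.54 CPM against 0.125, 0.0602 and 0.178 CPM. No library of one condition reached the other at any of these times, although at D6.75 the nearest were 0.591 and 0.485 CPM and the call at that time was lost without AGN replicate 2, AGN replicate 3 or CD1530 replicate 3. The difference was 1.20 ± 0.40 at D6.75, 3.14 ± 0.39 at D7.5, 4.04 ± 0.42 at D8.5 and 4.58 ± 0.61 at D10. CD1530 means at D7.5, D8.5 and D10 were 2.55, 3.17 and 3.05 CPM, and each overlapped the next in order. PM and all 5 AGN groups lay between 0.121 and 0.338 CPM, with 6 to 21 counts over 3 libraries, and neighbours in that order overlapped. The half-site printed in its window is the 1 found among the 250 bases.

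*Neurog2* (ENSMUSG00000027967, chr3:127633135-127635631, plus strand) encodes the sister factor, which in the spinal cord serves motor neuron and interneuron progenitors. It was close to absent until the last time point. At D10 the CD1530 libraries held 51, 44 and 52 counts, or 2.58, 2.42 and 2.92 CPM, and the AGN libraries held 0, 0 and 0. A count of 0 over the AGN group allows up to 0.0607 CPM (3 counts over the group), so the level in CD1530 was at least 43.4-fold higher; such limits cover counting error only. At D8.5 there were 2, 1 and 5 counts in CD1530 against 0, 1 and 0 in AGN, a ratio of 11.2 with an exact 95% interval from counting of 1.51 to 499. At every earlier time, and in PM, each group held 0 to 4 counts in all. *Neurog2* thus reached its highest level 2 sampled times after *Neurog1* had come within the range it then kept.

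*Elavl3* (ENSMUSG00000003410, chr9:22015005-22052023, minus strand) and *Elavl4* (ENSMUSG00000028546, chr4:110203722-110351909, minus strand) encode Hu proteins that bind and stabilise neuronal messenger RNAs. Their courses over the 11 groups had a Pearson r of 0.179, the lowest of *Elavl4* with any of these genes but *Stmn2*. *Elavl3* libraries in PM were at 1.39, 1.13 and 1.24 CPM. By D8.5 it was at 4.58, 5.37 and 4.83 CPM in CD1530 and 4.60, 3.72 and 4.82 CPM in AGN, which overlapped. At D10 it was at 6.82, 5.89 and 8.10 CPM in CD1530 and 2.94, 3.43 and 2.85 CPM in AGN, with no overlap and a difference of 1.17 ± 0.19. The earlier differences were -0.28 ± 0.30, 0.48 ± 0.23, 0.46 ± 0.20 and 0.16 ± 0.17 in order of time. *Elavl3* therefore stood above PM with both ligands from D7.5 on, and separated between them only at the last sampled time. It overlaps the gene *Gm49318* in the annotation.

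*Elavl4* stood above PM in both conditions at the first time point: its PM libraries read 1.44, 1.13 and 1.35 CPM, and at D6.25 CD1530 read 3.51, 2.80 and 3.66 CPM and AGN 2.93, 2.83 and 2.98 CPM. Both conditions then lay in the same range, with means of 1.74 and 2.08 CPM at D6.75 and 1.74 and 2.11 CPM at D7.5, and their libraries overlapped. They parted at D8.5, at 2.63, 2.18 and 3.30 CPM against 1.38, 0.917 and 0.900 CPM. At D10 the CD1530 libraries were at 7.58, 7.21 and 7.70 CPM and the AGN libraries at 0.625, 0.301 and 0.416 CPM, so that one condition lay above and the other below every PM library. CD1530 minus AGN was 1.26 ± 0.25 at D8.5 and 4.06 ± 0.36 at D10, after 0.19 ± 0.20, -0.25 ± 0.23 and -0.30 ± 0.24. Its window shown above holds 3 CANNTG matches and 1 half-site.

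*Tubb3* (ENSMUSG00000062380, chr8:123411424-123422015, plus strand) encodes the β-tubulin isotype by which young neurons are usually stained. It was already abundant in PM, at 47.9, 50.7 and 48.4 CPM. Libraries at D7.5 were at 52.2, 51.5 and 52.0 CPM in CD1530 and 43.3, 40.7 and 42.3 CPM in AGN. At D10 they were at 37.2, 37.0 and 35.5 CPM in CD1530 and 12.4, 13.6 and 14.0 CPM in AGN. The conditions were apart from D7.5 on, by 0.30 ± 0.06 at D7.5, 0.44 ± 0.06 at D8.5 and 1.46 ± 0.07 at D10, after -0.06 ± 0.06 and 0.09 ± 0.06. At D10 both conditions lay below PM, so the difference at that time is between a smaller and a larger decrease from PM. *Tubb3* lies inside the readthrough gene *Gm20388* in the annotation, so reads of both could be shared.

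*Stmn2* (ENSMUSG00000027500, chr3:8509360-8561606, plus strand) encodes a microtubule-destabilising protein of growing axons. It was the only 1 of the 8 genes that was lower in CD1530 than in AGN in any called comparison of the 2 conditions. PM held its highest level, at 82.7, 85.9 and 78.7 CPM. At D6.75 CD1530 read 34.8, 31.2 and 28.8 CPM and AGN 43.2, 40.9 and 43.3 CPM, and at D10 they read 11.2, 11.8 and 11.6 CPM and 17.1, 18.1 and 19.0 CPM. The conditions did not overlap at D6.25, D6.75, D7.5 or D10, with CD1530 lower each time, and overlapped at D8.5. CD1530 minus AGN was -0.12 ± 0.06, -0.43 ± 0.06, -0.43 ± 0.06, -0.10 ± 0.06 and -0.65 ± 0.08 in order of time. CD1530 at D10 was the lowest of the 11 groups, at 11.5 ± 0.3 CPM, and AGN at D10 the next, at 18.1 ± 0.9 CPM.

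*Chrna3* (ENSMUSG00000032303, chr9:55010111-55026562, minus strand) encodes the α3 subunit of the ganglionic nicotinic receptor. It held 0, 1 and 2 counts in the PM libraries. At D8.5 CD1530 libraries were at 2.23, 1.97 and 2.83 CPM (40, 37 and 48 counts) and AGN libraries at 0.00, 0.153 and 0.0530 CPM (0, 3 and 1 counts). At D10 they were at 7.32, 7.15 and 8.26 CPM (145, 130 and 147 counts) against 1, 0 and 0 counts. The difference was 5.30 ± 0.83 at D8.5 (6.60 without AGN replicate 2 and 4.41 without AGN replicate 1), and at D10 the ratio of 422 to 1 counts, scaled for depth, was 374 with an exact 95% interval from counting of 66.8 to 14810. Until D7.5 the 2 conditions overlapped, with 13 to 23 counts a group. It stood clear of AGN from D8.5 on, *Pax6* from D7.5 and *Neurog1* from D6.75.

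**Figure D2:**
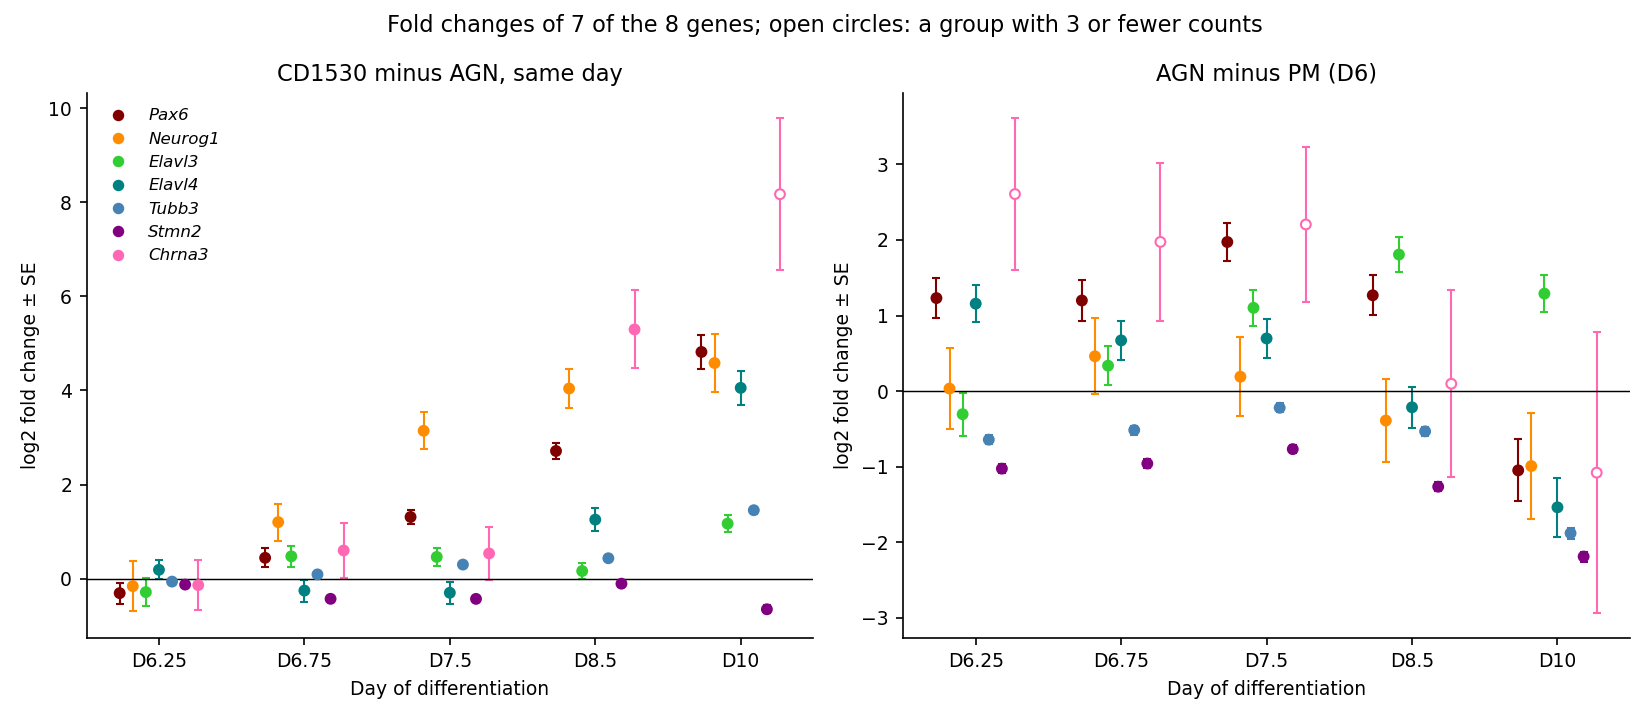
Log2 fold change ± SE of 7 of the genes, CD1530 minus AGN on the same day (left) and AGN minus PM (right); open circles mark comparisons in which a group held 3 or fewer counts, whose fitted values depend on a small prior count, and *Neurog2* is left out because groups held 0. On the left the points spread from near 0 at D6.25 to between -0.65 (*Stmn2*) and 4.82 (*Pax6*) among filled points at D10; on the right *Tubb3* and *Stmn2* are below 0 at every time.

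Levels can be compared between genes only per length of transcript. In CPM per kilobase of annotated exon, *Tubb3* was far above the rest in CD1530 at D10, at 19.6 ± 0.5, and *Stmn2* followed at 2.06 ± 0.06. The other 6 lay between 0.893 ± 0.052 (*Pax6*) and 1.81 ± 0.32 (*Neurog1*), with *Chrna3* at 1.44 ± 0.11 and *Neurog2* at 1.19 ± 0.12. In PM, *Tubb3* was at 26.2 ± 0.8 and *Stmn2* at 14.7 ± 0.6, and the other 6 were between 0.00981 (*Chrna3*) and 0.242 (*Elavl4*). The pair of cytoskeletal genes was thus the highest per length in PM as well, and 25 of the 26 other pan-neuronal genes described below had counts there, with a summed level of 571 to 586 CPM.

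AGN against PM, from D6.25 to D8.5, uses no CD1530 library and was tested, except for *Chrna3*, which was chosen on its measured change and is described. AGN levels were known when the genes were chosen, so the adjusted p-values are not independent of that choice. Several genes moved away from PM in AGN at several times, as did a large share of all genes, given below. *Pax6* rose at all 4 times, by 1.23 ± 0.27 (adjusted p = 5.7e-05), 1.20 ± 0.27 (8.1e-05), 1.97 ± 0.26 (9.1e-10) and 1.27 ± 0.26 (1.8e-05), from edgeR's quasi-likelihood test. *Tubb3* fell by 0.64 ± 0.06, 0.52 ± 0.06, 0.22 ± 0.06 and 0.53 ± 0.06, with adjusted p-values of at most 9.9e-04 in the edgeR fit. *Stmn2* fell by 1.02 ± 0.06, 0.96 ± 0.06, 0.77 ± 0.06 and 1.26 ± 0.06, with adjusted p-values of at most 9.6e-16 in the edgeR fit. *Elavl3* was not called at D6.25 (-0.30 ± 0.28) or D6.75 (0.34 ± 0.26) and rose by 1.10 ± 0.24 at D7.5 (adjusted p = 7.1e-05) and 1.81 ± 0.23 at D8.5 (6.2e-10).

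*Elavl4* rose in AGN by 1.16 ± 0.24 at D6.25 (adjusted p = 4.1e-05), 0.67 ± 0.25 at D6.75 (0.016) and 0.70 ± 0.25 at D7.5 (0.013), and was at -0.21 ± 0.27 at D8.5 (0.48), all from the edgeR fit. The *Elavl4* calls at D6.75 and D7.5 were lost without PM replicate 2 or without AGN replicate 2, with adjusted p-values up to 0.213 and 0.128 in the edgeR fit. *Chrna3* had 21 counts in AGN at D6.25 against 3 in PM, a ratio of 6.72 (exact 95% interval from counting 2.01 to 35.2), and the libraries overlapped. Its log2 fold change there was 2.61 ± 1.00 and ranged from 2.05 without PM replicate 1 to 3.50 without PM replicate 3. The ratio was 4.29 (1.18 to 23.5) at D6.75 and 5.06 (1.43 to 27.3) at D7.5, and there were 4 counts against 3 at D8.5. *Neurog1* was not called at any of these times, and *Neurog2* had at most 3 counts in each group.

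In all, 3, 3, 4 and 2 of the 8 genes were called higher, *Chrna3* among them at the first 3 times, and 2 lower at each of the 4 times, against 35.0%, 39.0%, 37.3% and 38.3% of all genes that rose and 33.1%, 34.5%, 34.2% and 37.7% that fell. For so few genes these counts do not stand out from those shares, and they are not read as a trait of the 8. At D10, which bears on how the genes were chosen and is described only, AGN minus PM was -1.05 ± 0.41 for *Pax6*, -1.88 ± 0.07 for *Tubb3*, -1.54 ± 0.39 for *Elavl4*, -2.19 ± 0.07 for *Stmn2* and 1.29 ± 0.24 for *Elavl3*. *Elavl3* was the 1 gene of these 5 above PM in AGN at D10. Since AGN cultures differ from PM in ligand, growth factors, time in culture and labelled format at once, these cannot be told apart.

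Over the 11 group means, on log2(CPM + 1), *Pax6* and *Neurog1* had the most similar course of any pair among the 8 genes (Pearson r = 0.943), followed by *Neurog2* and *Chrna3* (0.910). *Stmn2* had a negative r with 6 of the other genes, from -0.347 with *Elavl4* to -0.691 with *Neurog2*, and 0.482 with *Tubb3*. Groups share ligands and days, so these values are a description. Among the 16905 other genes with at least 20 counts a library in their highest group, the nearest to *Chrna3* were *Rfx4* (0.992), a ciliary and neural tube transcription factor, *Vipr2* (0.975), *Gdf6* (0.970) and *Pitpnm3* (0.966). The nearest to *Neurog2* was *Neurod4* (0.998), a related helix-loop-helix factor, which had 92, 85 and 77 counts in CD1530 and 0 in all AGN libraries at D10. Both genes reach the lowest level of the filtered table only through CD1530 at D10, so a high r between them was built in and nothing is read from it. The nearest to *Neurog1* was *Stra8* (0.992), a retinoid-induced gene of germ cells, and to *Pax6* it was *Ate1* (0.978). *Tubb3* was nearest to *Gm3375* (0.972) and *Ddx4* (0.956), *Elavl3* to *Agfg2* (0.974) and *Cnn3* (0.972), *Elavl4* to *Zbtb16* (0.936) and *Hoxc9* (0.913), and *Stmn2* to *Gpd2* (0.986) and *Klf9* (0.985). The second for *Pax6*, *Neurog1* and *Neurog2* were *Gm18336* (0.961), *Mcpt8* (0.975) and *Olfr1033* (0.994). *Olfr1033* was likewise close to absent outside CD1530 at D10, where it was at 1.95 CPM. Of the 18 genes named, 5 were also named on linear CPM and 8 over single libraries.

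*Chrna3* lies between *Chrna5*, 2332 bases away, and *Chrnb4*, 1592 bases away, which encode further subunits of the same ganglionic receptor. Both were called higher in CD1530 than in AGN at the same times as *Chrna3* separated. *Chrnb4* libraries at D10 were at 6.06, 5.67 and 6.35 CPM in CD1530 and 0.875, 0.783 and 0.594 CPM in AGN, and its difference was 1.62 ± 0.27 at D8.5 (edgeR adjusted p = 2.0e-06) and 3.00 ± 0.28 at D10 (9.5e-14). *Chrna5* libraries at D10 were at 1.01, 1.38 and 1.29 CPM in CD1530 and 0.750, 0.181 and 0.356 CPM in AGN, a difference of 0.96 ± 0.38 at D8.5 (edgeR adjusted p = 0.039) and 1.51 ± 0.44 at D10 (0.0022). None of the libraries of the 2 conditions overlapped for either gene at these times.

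At D6.25 to D7.5 neither gene was called between the ligands. Against PM, *Chrnb4* rose in AGN by 1.86 ± 0.32 (edgeR adjusted p = 5.1e-07), 1.93 ± 0.32 (1.8e-07) and 0.89 ± 0.34 (0.017) from D6.25 to D7.5. *Chrna5* was not called in AGN against PM at any time. Of the 15 annotated genes within 250 kb, 10 were in the table, and of the 8 beyond the receptor subunits only *Ireb2* was called at D10, higher by 0.22 ± 0.06 (edgeR adjusted p = 0.0025). At D8.5 *Ireb2* (0.14 ± 0.06) and *Ube2q2* (0.19 ± 0.06) were called higher, *Crabp1* (-0.27 ± 0.08) and *Fbxo22* (-0.34 ± 0.05) lower, and *Rab7-ps1*, *Hykk*, *Psma4* and *Nrg4* were not called at either time. Beside *Chrna3* and the 2 subunit genes, no gene in the window differed by more than 0.34 in either direction at these times.

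**Figure D3:**
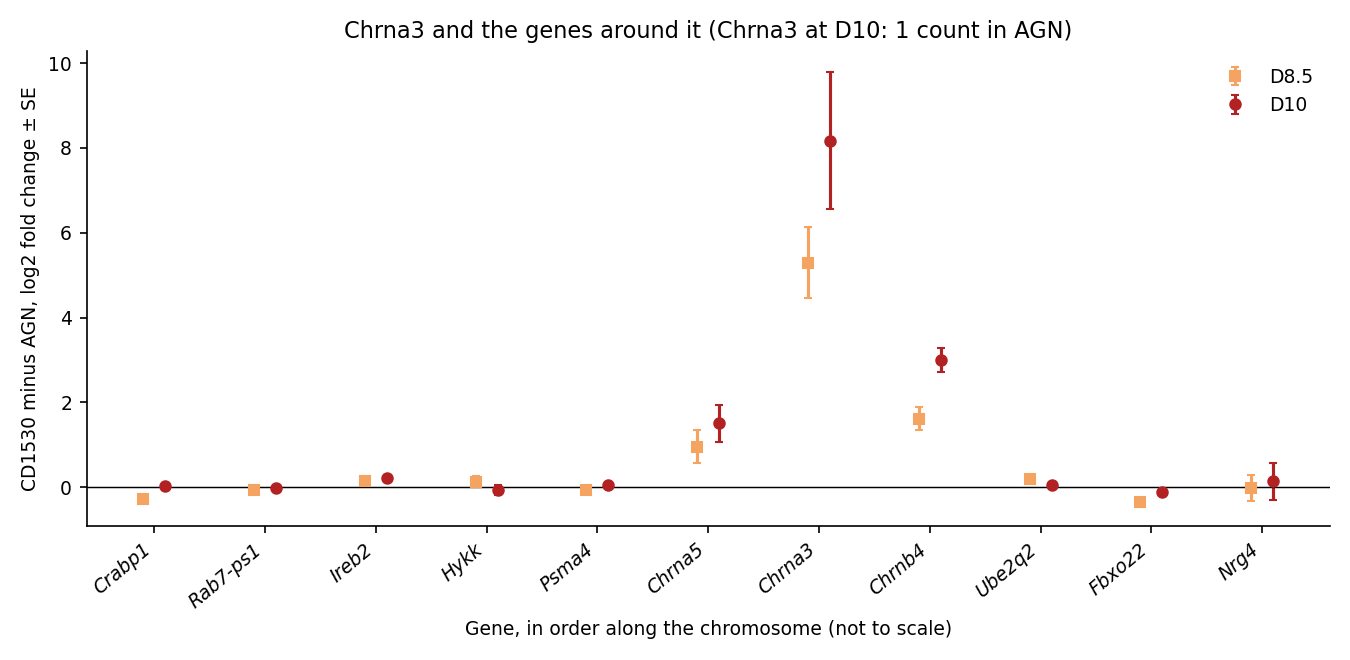
Log2 fold change ± SE, CD1530 minus AGN, of *Chrna3* and the 10 genes within 250 kb that are in the table, in chromosomal order, at D8.5 (squares) and D10 (circles). The 3 receptor genes stand at 0.96 or more while the others lie between -0.34 and 0.22; *Chrna3* at D10 rests on 1 count in AGN.

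Other genes of the neural lineage, in lists that leave out the 8, were tested in the same fit; 57 of 67 were in the table. In CD1530 against AGN, 3 rose and 1 fell at D6.25. At D6.75, 6 rose and 12 fell, at D7.5 10 rose and 14 fell, and at D8.5 18 rose and 15 fell. D10 had 38 that rose and 6 that fell. The median log2 fold change of the 57 genes was -0.08, -0.04, 0.08, 0.11 and 0.94 in order of time, where that of all genes was at most 0.02 from 0. The shares of all genes called higher were 1.23%, 7.94%, 15.2%, 20.4% and 22.7% in order of time. Those called lower were 0.695%, 10.0%, 11.8%, 19.6% and 24.0%. The deposited table had been filtered on low counts, and 5 of the 57 genes, 4 of them transcription factors, reach its lowest level only through CD1530 at D10, so they had to be higher there; without them 33 rose and 6 fell. Of the 8 genes described above, this holds for *Neurog2*, and of all genes for 0.21%.

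Of 16 neural progenitor genes, 13 rose and 3 fell at D10. *Sox1*, an early factor of the neural plate, had libraries at 28.7, 31.3 and 28.4 CPM in CD1530 and 0.867, 0.917 and 0.477 CPM in AGN at D8.5, and at D10 differed by 5.43 ± 0.39 (edgeR adjusted p = 2.4e-22). *Pou3f2*, a factor of neural precursors, differed by 5.47 ± 0.46 (2.8e-19), and *Gbx2*, which helps to set the hindbrain boundary, by 4.87 ± 0.45 (5.0e-19). *Dbx1*, of interneuron progenitors, held 156 counts in CD1530 and 0 in AGN at D10, at least 46.1-fold higher, and 0 in both at D8.5. It reaches the lowest level of the table only through CD1530 at D10, so it had to be higher there. Without *Dbx1*, 12 of the progenitor genes rose. The 3 that fell were *Pou3f1* (-2.08 ± 0.12), *Zic1* (-0.48 ± 0.04) and *Zic2* (-0.17 ± 0.04), named after their values were seen.

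Of 15 proneural and neuronal transcription factors, 12 rose, 1 fell and 2 were not called in CD1530 against AGN at D10. Of the 12, 4, among them *Neurod4*, *Myt1* and *Lhx3*, are in the table only through CD1530 at D10, and without them 8 rose. The summed level of the list was 15.8 to 17.6 CPM in PM. It was higher at D6.25, at 134 to 137 CPM in CD1530 and 156 to 163 CPM in AGN, than at D10, at 41.0 to 43.1 CPM and 14.9 to 16.4 CPM. The difference at D10 thus followed a decrease with both ligands. *Neurod4* was at least 75.1-fold higher, *Myt1*, a zinc-finger factor of differentiating neurons, differed by 4.28 ± 0.92 (edgeR adjusted p = 2.6e-07), and the motor neuron factor *Lhx3* had 80 counts against 2, a ratio of 35.5 (exact 95% interval from counting 9.50 to 297.9). At D8.5, 5 rose, 2 fell and 8 were not called, and *Neurod4* had 5, 0 and 10 counts in CD1530 and 0 in AGN. The 1 that fell at D10 was *Lhx1* (-1.91 ± 0.19), named after its value was seen.

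Pan-neuronal structural and synaptic genes went both ways: of 26, 13 rose, 2 fell and 11 were not called at D10, and at D8.5 5 rose and 8 fell. *Dcx* was at 6.47, 6.49 and 5.23 CPM in CD1530 and 0.438, 0.783 and 0.356 CPM in AGN at D10, a difference of 3.51 ± 0.38 (edgeR adjusted p = 5.4e-12), and at D8.5 its libraries overlapped. The synaptic calcium sensor *Syt1* differed by 3.97 ± 0.58 (2.3e-10), *Scg3*, of secretory granules, by 2.69 ± 0.51 (1.2e-06), and *Stmn4*, a stathmin related to *Stmn2*, by 2.08 ± 0.27 (4.9e-09). *Gng3* (-1.84 ± 0.11) and *Map2* (-0.94 ± 0.10), named after their values were seen, fell with *Stmn2*. The median of this list at D10 was 0.24.

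**Figure D4:**
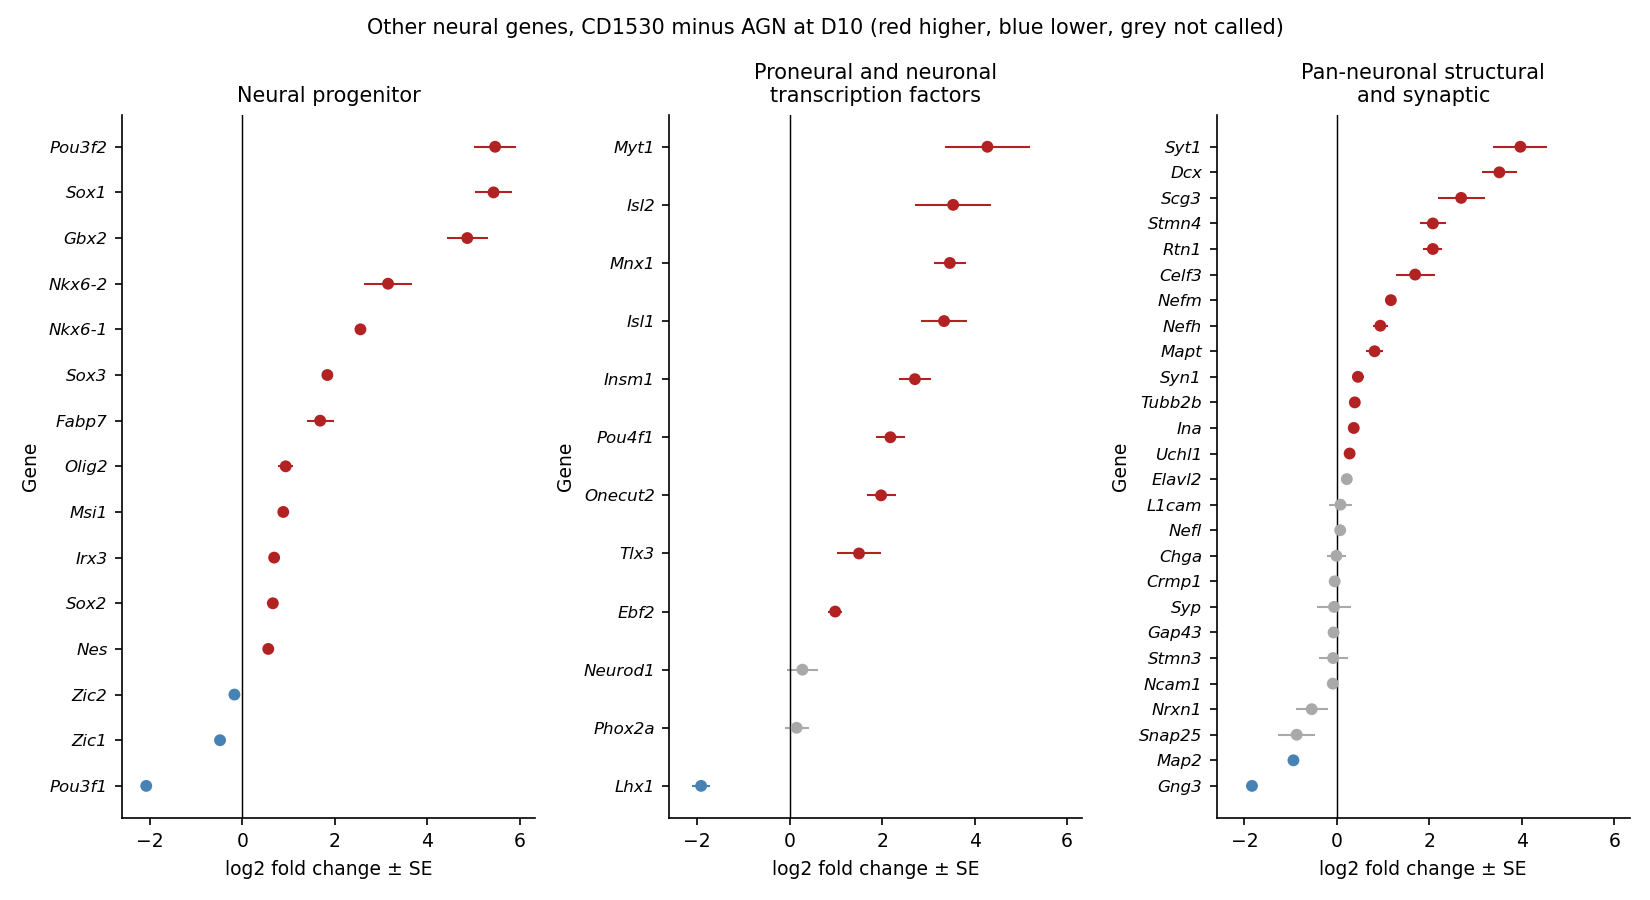
Log2 fold change ± SE, CD1530 minus AGN at D10, of the other neural genes by list; red marks genes called higher, blue called lower and grey not called, and genes with 3 or fewer counts in a group are left out. Progenitor and transcription factor genes are mostly red and reach 5.47 (*Pou3f2*), while 11 of the 26 structural and synaptic genes are grey.

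Relatives of the 8 genes gave mixed directions. Of 11 tubulin, stathmin and ELAV relatives, 5 rose and 4 fell at D10, among them *Tubb4a* (1.08 ± 0.07, edgeR adjusted p = 4.3e-17), *Tubb6* (0.63 ± 0.04, 1.1e-18) and *Stmn1*, a stathmin of dividing cells (-0.53 ± 0.07, 1.3e-07). Of 9 acetylcholine receptor subunits other than *Chrna3*, 5 rose and 1 fell. Beside *Chrnb4* and *Chrna5* these included *Chrna4*, a brain subunit (1.54 ± 0.19, edgeR adjusted p = 3.2e-09), and *Chrnb1*, a muscle subunit (1.47 ± 0.12, 9.3e-14). Among 9 repressors of neuronal genes, 5 fell and 0 rose at D10. *Rest*, which silences neuronal genes in other cells, was at 108 ± 2 CPM in CD1530 and 131 ± 3 CPM in AGN, a difference of -0.27 ± 0.05 (6.0e-06), and stood at 207 ± 10 CPM in PM. The helix-loop-helix inhibitors *Id1* (-2.12 ± 0.09, 3.3e-24), *Id4* (-1.63 ± 0.16, 3.3e-11) and *Id3* (-0.80 ± 0.07, 2.6e-12) and the Notch effector *Hey1* (-1.39 ± 0.08, 4.6e-18) were the others that fell, with edgeR adjusted p-values.

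Markers of other cells that make these genes moved at the same time, and their part in the differences of the 8 genes was not tested. Of 7 autonomic and sensory neuron markers, 7 rose and 0 fell at D10, and their summed level was 75.5 to 80.6 CPM in CD1530, 25.3 to 27.3 CPM in AGN and 7.18 to 7.99 CPM in PM. *Ntrk3*, a neurotrophin receptor that other tissues also express, took part with 3.43 ± 0.16, while the list's *Th* and *Dbh* were not analysed here. Of 5 motor neuron markers, 5 rose and the sum was 10.9 to 13.0 CPM against 0.361 to 1.01 CPM in AGN at D10. At D6.25 this sum had been 12.57 to 14.05 CPM in CD1530 and 8.997 to 11.07 CPM in AGN. By D8.5 it was lower with both ligands, at 4.08 to 5.54 CPM in CD1530 and 1.41 to 1.64 CPM in AGN. *Slc18a3*, the vesicular acetylcholine transporter, had 118 counts against 0 at D10, and the other 4 are also in the transcription factor list. Of the 5 markers, 2, *Lhx3* and *Slc18a3*, are in the table only through CD1530 at D10. Of 9 neural crest and Schwann genes, 6 rose and 1 fell, and the sum was 422 to 425 CPM against 181 to 185 CPM, of which *Ngfr* was at 236 against 66.0 CPM. Of 11 lens and pancreatic islet markers, relevant to *Pax6*, 0 were in the table. The 10 retinoid receptor targets, chosen as known targets, had 7 called higher at D6.25 and all 10 from D6.75 on, a time at which *Neurog1* was the 1 gene of the 8 called higher. *Rarb*, which encodes a retinoic acid receptor, was at 56.2 CPM in CD1530 and 1.13 CPM in AGN at D10.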

How the data were processed

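RNA of 33 libraries was sequenced by the authors and deposited as raw read counts per gene for 17120 genes, made with STAR, featureCounts and GRCm38 according to the labels and methods. The annotation release and the strand and multi-mapping settings are not given in the sources used here. Every gene reaches 0.611 CPM or more in its third-highest library, so the deposited table had been filtered on low counts.

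All genes entered 1 edgeR 4.0.16 quasi-likelihood fit (R 4.3.3, TMM, robust) with a mean for each of 11 groups, and p-values were adjusted by Benjamini-Hochberg over all genes of a comparison and called under 0.05. The fit was tested on simulated data. The estimated biological coefficient of variation was 4.68%. Library totals of 17116084 to 38120841 counts set the precision, and intervals for groups with 3 or fewer counts are exact and cover counting error only. Gene positions are from GENCODE M21 on GRCm38, matched by identifier for 17117 genes and not for 3. Alternatives were DESeq2 1.42.0, its size factors or the library size in place of TMM, 2 other filters on low counts, edgeR's likelihood ratio test, a fit of the compared groups alone, a replicate block and leaving out each replicate.

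The members and lists were chosen with earlier results of these data known, so counts over a list are not independent evidence. Genes named are the 8, *Rest*, *Chrna5*, *Chrnb4*, in each list up to 4 called genes with the largest fold change of CD1530 against AGN at D10 among those at 1 CPM or more, the genes most like each of the 8, and those within 250 kb of *Chrna3*; *Tbx6* and *Scx* are label checks. Some genes of the lists are not reported here by name. Replicates are biological by the methods, and replicates with the same number did not pair.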

Additional observations from a re-analysis of the deposited data

Results flagged for a closer look

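At 4 combinations of gene and day, all 3 CD1530 libraries lay above and all 3 AGN libraries lay below the 3 PM libraries. The conditions there lay on opposite sides of the shared PM samples. The share of all genes with this pattern was not computed, so the 4 are not read as a trait of these genes. In each case the difference between the 2 directions was not tested, and in 2 of the 4 one side was not called against PM: AGN minus PM was -0.99 ± 0.70 for *Neurog1* at D10, and CD1530 minus PM was 0.08 ± 0.06 for *Tubb3* at D7.5. *Pax6* at D10 had means of 10.4 CPM in CD1530 and 0.362 CPM in AGN, with PM at 0.764 CPM. *Neurog1* at D10 had means of 3.05 CPM and 0.121 CPM, with PM at 0.246 CPM, and its AGN group held 6 counts. *Elavl4* at D10 had means of 7.50 CPM and 0.447 CPM, with PM at 1.30 CPM, and *Tubb3* at D7.5 had means of 51.9 CPM and 42.1 CPM, with PM at 49.0 CPM. The lowest CD1530 library of *Tubb3*, at 51.5 CPM, was close to the highest PM library, at 50.7 CPM.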

How the results depend on the processing

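The counts of calls at D10, 7 of the 8 genes higher and 1 lower, were the same under the other scalings, filters, tests and fits, DESeq2 included. Leaving out genes that pass the table's filter only through CD1530 at D10, chosen after seeing the data, took the 7 to 6 by dropping *Neurog2*. Over all settings 383 of 396 counts of calls stayed within 1.5 times the reported one and 13 moved. At D6.75, 0 of the 8 genes were called higher in CD1530 when only the 2 compared groups were fitted, and 0 to 2 when 1 library was left out (0 without AGN replicate 2 or 3, 2 without CD1530 replicate 3, then *Pax6* and *Elavl3*). The other neural genes called lower at D6.75 fell from 12 to 6 with only the 2 compared groups, a fit with fewer samples. At D6.25 the 1 other neural gene called lower became 3 with the likelihood ratio test, 3 with only the 2 compared groups, 2 with DESeq2 and 1 to 2 with 1 library left out (2 without CD1530 replicate 3), and the 3 called higher became 1 to 3 (1 without AGN replicate 3). In AGN at D6.75 against PM, 1 to 3 of the 8 genes were called higher with 1 library left out, 1 without PM replicate 2 or AGN replicate 2. *Chrna3* was no longer called there without PM replicate 1, PM replicate 2 or AGN replicate 2, nor at D7.5 without PM replicate 1 or AGN replicate 3.

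In AGN against PM, signs turned for genes that were not called when 1 library was left out. *Neurog1* ranged from -0.18 to 0.30 at D6.25, -0.24 to 0.45 at D7.5 and -0.94 to 0.068 at D8.5, being -0.12 without PM replicate 1, -0.04 without PM replicate 3 and -0.08 without AGN replicate 2 at D6.25. *Chrna3* at D8.5 ranged from -1.21 to 1.00 and was -0.46 without PM replicate 1. Library-size scaling took AGN minus PM at D10 to -2.03 for *Tubb3* and -2.34 for *Stmn2*. The cause was not tested. Groups of 0 to 21 counts limit what can be seen of *Chrna3*, *Neurog1* and *Neurog2* in PM and AGN.

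Replicates shared only a number: deviations of same-numbered libraries had r between -0.158 and 0.136 over 30 pairs, and no comparison had all 3 over 0.1. The replicate block gave 2 other neural genes called lower at D6.25 in place of 1, 7 and 1 of the 8 genes at D10, and changed no count for the 8 genes.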

Other observations

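Genes that act with or against the proneural factors form a further list. Of its 10 Notch ligands, Notch receptors and E proteins, 3 rose, 1 fell and 6 were not called in CD1530 against AGN at D10. *Dll1*, the ligand that newly forming neurons present to their neighbours, was at 8.33 against 4.03 CPM, a difference of 1.04 ± 0.14 (edgeR adjusted p = 1.8e-08). *Tcf4*, a helix-loop-helix partner of proneural factors, differed by 0.25 ± 0.04 (3.4e-07) and the ligand *Jag2* by 0.21 ± 0.08 (0.024), while *Dll3* fell by 0.34 ± 0.13 (0.031) with overlapping libraries. The lists were drawn up with earlier results of these data known.

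Markers of glia and muscle moved in both directions. Of 5 glial genes, 3 rose and 2 fell at D10, and the summed level was 172 to 179 CPM in CD1530 and 278 to 317 CPM in AGN. The 2 that fell were *Olig1*, of oligodendrocyte precursors (-2.22 ± 0.14, edgeR adjusted p = 1.8e-18), and *Cspg4*, which pericytes and other mesenchymal cells also express (99.5 against 232 CPM). *Aldh1l1* (0.71 ± 0.08, 1.1e-10) and *Slc1a3* (0.50 ± 0.06, 2.3e-08) rose, with adjusted p-values from the edgeR fit. Of 7 skeletal muscle genes, 1 rose (*Des*, 0.45 ± 0.12, edgeR adjusted p = 0.0016) and 2 fell, among them *Actc1* (-0.63 ± 0.21, 0.011), and the sum was 15.6 to 17.8 CPM against 14.6 to 17.5 CPM. The part of any of these cells in the levels of *Pax6*, *Neurog1*, *Neurog2*, *Elavl3*, *Elavl4*, *Tubb3*, *Stmn2* and *Chrna3* was not tested.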
